A study of Mus musculus with 4 samples.

Results

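MHC class II molecules are the surface proteins with which antigen-presenting cells show peptides from ingested material to CD4+ T cells. The genes described here are 10 that were listed by symbol. They are the classical chain genes H2-Aa, H2-Ab1 and H2-Eb1, the invariant chain gene Cd74, the transactivator gene Ciita, the peptide exchange genes H2-DMa, H2-DMb1 and H2-DMb2, and the exchange inhibitor genes H2-Oa and H2-Ob. All 10 were found among the 43629 gene identifiers that were counted, and all 10 passed the filter on low counts, which left 16500 genes. RNA was sequenced from 4 libraries of haematopoietic stem and progenitor cells (HSPCs), the CD117+ bone marrow cells of C57Bl/6 mice with a floxed Chaf1b gene (Chaf1b fl/fl). Chaf1b encodes a subunit of CAF-1, the complex that places histones on newly copied DNA. Cells of 2 control libraries received the empty retroviral vector MIGR1, and cells of 2 Chaf1b-deleted libraries (Chaf1b -/-) received MIGR1-Cre, whose Cre recombinase removes the floxed part of the gene. Both groups were sorted for the eGFP of the vector and taken 48 h after transduction. The labels give neither age nor sex, and the methods name adult mice of both sexes without assigning them to libraries. All cells were grown with SCF, IL-6 and IL-3. The control vector carries no Cre, so the loss of Chaf1b and the presence of Cre cannot be told apart.

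A classical class II molecule pairs an alpha chain with a beta chain, and Cd74 fills its groove until proteases in endosomes cut Cd74 down to a short remnant. H2-DM, made of H2-DMa with H2-DMb1 or H2-DMb2, removes the remnant so that peptides can bind, and H2-O, made of H2-Oa and H2-Ob, holds H2-DM back. Ciita does not bind DNA itself. It is drawn to class II promoters by factors seated on the X box and the Y box, which are the RFX complex, CREB proteins and NF-Y, and it is regarded as the switch of the whole group. Dendritic cells, macrophages and B cells are known for high class II expression, and interferon-gamma can raise Ciita in many other cells.

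Letters like those of the X and Y boxes stand in the promoters of several members, and these stretches are shown because Ciita acts through such boxes. RefSeq promoter windows of 300 bases, from 250 before to 50 after an annotated start on GRCm38.p6, were used for 7 of the 10 members. The letters searched were GNAAC, the core of the X box, and GATTGG, the Y box, on the same strand with their first bases 28 to 36 bases apart. These letters and the spacing were chosen after the sequences had been seen. On the strand of the gene, 5 of the 7 members held the spaced pair. Of all 32851 windows, 94 (0.286%) held it on the strand of the gene and 187 (0.569%) on either strand. The 2 parts overlap nowhere in a pair and are common alone, GNAAC in 84.8% and GATTGG in 16.1% of all windows on either strand. In the stretches that follow, written 5′ to 3′ on the strand of the gene, capitals mark the X-box core and then the Y box. They are H2-Aa at chr17:34287861-34287912 (minus strand), H2-Eb1 at chr17:34305768-34305818, H2-DMb1 at chr17:34153089-34153140, H2-Oa at chr17:34092295-34092346 and H2-Ob at chr17:34238810-34238858 (all plus strand). H2-Eb2, a class II beta chain gene outside the 10, is added from chr17:34325535-34325585 (plus strand) because its values are set beside the members further on.
H2-Aa: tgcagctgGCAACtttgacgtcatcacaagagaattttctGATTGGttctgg
H2-Eb1: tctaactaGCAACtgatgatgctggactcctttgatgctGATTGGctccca
H2-DMb1: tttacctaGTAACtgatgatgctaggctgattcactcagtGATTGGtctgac
H2-Oa: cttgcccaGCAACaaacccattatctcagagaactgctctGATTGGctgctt
H2-Ob: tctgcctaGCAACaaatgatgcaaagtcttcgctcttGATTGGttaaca
H2-Eb2: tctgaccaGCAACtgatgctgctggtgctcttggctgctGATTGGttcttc
The core was GCAAC in all but H2-DMb1, where it was GTAAC. Among the 5 members the Y box began 44 to 62 bases before the annotated start, and in H2-Eb2 101 bases before it. On the strand of the gene, H2-DMa had GATTGG at a single place in its 2 windows, and H2-DMb2 had it in its window. All these windows held GNAAC on either strand, but none held the pair at this spacing. That says only that these letters are not so placed there. No window was used for H2-Ab1, Cd74 or Ciita.

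**Figure D1:**
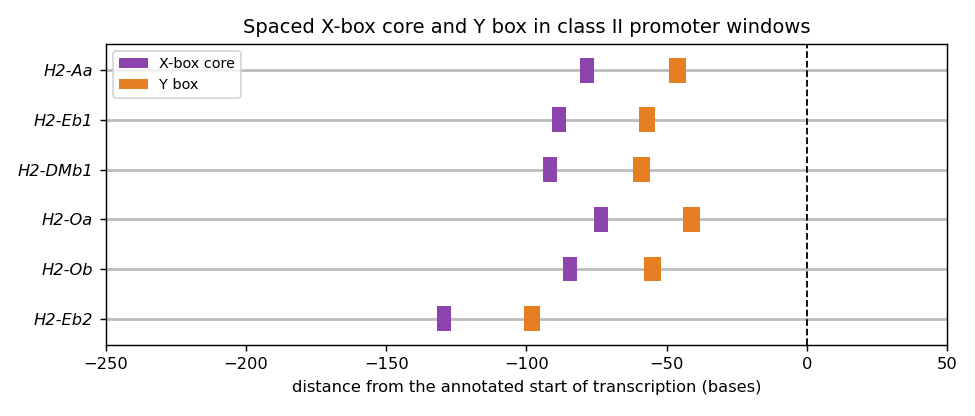
Position of the spaced X-box core and Y box in each promoter window that held both, in bases from the annotated start of transcription, which the dashed line marks. Each grey line is the 300-base window of 1 gene, and in every gene shown the X-box core lies upstream of the Y box, with the Y box of H2-Eb2 farther from the start than those of the 5 members.

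The libraries held 18468637 to 25409926 reads counted on genes, and a count of 3 corresponded to 0.118 to 0.162 CPM, the count of a gene per 1000000 reads counted on genes in that library. Chaf1b was at 80.3 and 57.9 CPM in the controls and at 16.1 and 17.9 CPM in the deleted libraries, a log2 fold change of -2.01 (SE 0.25, adjusted p = 0.0330 by the quasi-likelihood test of edgeR, Benjamini-Hochberg method). All 6 HSPC markers listed were above 0 in each library, with Kit, the gene of CD117, between 95.6 and 124 CPM. Chaf1b-deleted replicate 1 stood apart from the other libraries. It had 336 CPM of Xist against at most 1.30 CPM elsewhere, and 0.127 CPM of 4 Y-linked genes together against at least 306 CPM elsewhere. Such levels are those of female cells in this library and of male cells in the other 3, so the deleted libraries did not come from the same animal. For the controls nothing in the labels says whether the animals were separate, and p-values measure the spread between these libraries. With 2 libraries against 2, an exact permutation test of a single value cannot go below p = 0.333 (two-sided), so tests across all genes are given.

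The classical chain genes, Cd74 and Ciita differed more between replicates than between groups. In these 5 genes control replicate 1 was lowest, then Chaf1b-deleted replicate 2, then control replicate 2, and Chaf1b-deleted replicate 1 was highest. No member was called up- or downregulated, and 8 of the 10 members had overlapping groups. H2-Aa, which encodes the alpha chain of the I-A molecule, was at 23.0 and 171 CPM in the control libraries and at 229 and 86.9 CPM in the deleted libraries. H2-Ab1, its beta chain partner, was at 35.0 and 144 CPM in the controls and at 211 and 80.7 CPM after deletion. The gene H2-Eb1, for the beta chain of I-E, was at 13.0 and 93.5 CPM in the controls and at 148 and 51.6 CPM after deletion. For all 3 chains the higher control library lay above the lower deleted library. The I-E alpha chain gene of this strain background, annotated as the pseudogene H2-Ea-ps, had 1 count in control replicate 1 and none elsewhere.

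The invariant chain gene Cd74 (chromosome 18, 60963502 to 60972300 in NCBIM37, plus strand) had the highest counts of the 10, with 1960 and 12369 in the controls against 13333 and 3993 after deletion. Scaled, these were 86.2 and 487 CPM in the controls and 566 and 216 CPM in the deleted libraries. Ciita (chromosome 16, 10480237 to 10527657, plus strand) was at 5.23 and 21.1 CPM in the controls and at 32.1 and 16.2 CPM after deletion. Both genes repeated the order of the classical chains, so the transactivator and the genes it acts on were low in the same control library and high in the same deleted library.

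**Figure D2:**
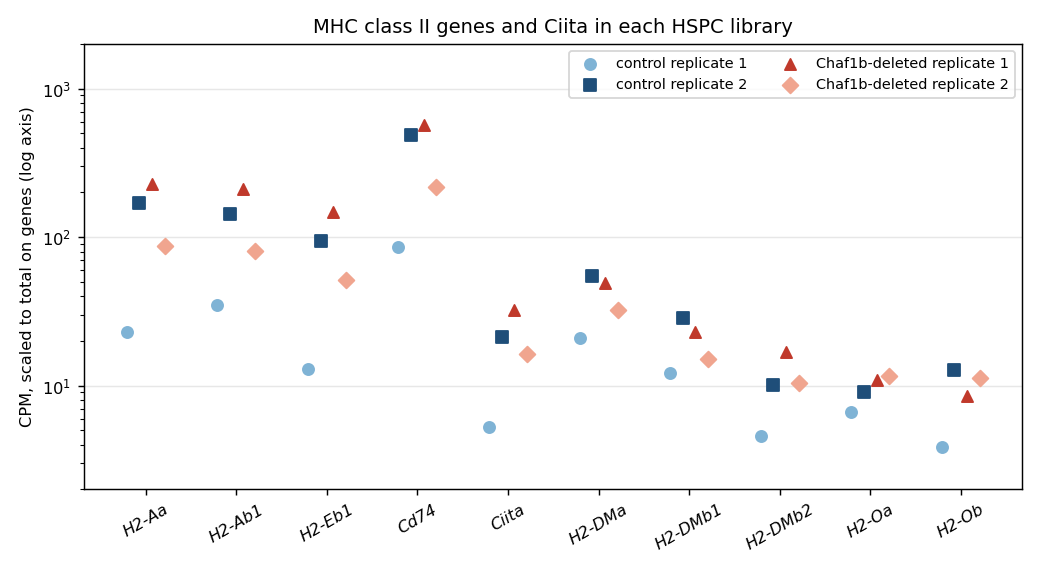
CPM on a log axis of each class II member in the 4 HSPC libraries, 1 point for a library. Control replicate 1 (light blue circles) is the lowest library in all 10 genes, and the 2 groups separate only in H2-DMb2 and H2-Oa.

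Fitted over all 4 libraries, the changes of these 5 genes were positive with wide errors. The log2 fold change, deleted over control, was 0.79 (SE 0.81) for H2-Aa, 0.78 (SE 0.66) for H2-Ab1 and 0.99 (SE 0.82) for H2-Eb1. It was 0.53 (SE 0.75) for Cd74 and 0.94 (SE 0.62) for Ciita. Every 95% interval held 0, that of H2-Aa running from -1.11 to 2.68 and that of Ciita from -0.49 to 2.38. The adjusted p-values over all genes (edgeR's quasi-likelihood test, Benjamini-Hochberg method) lay between 0.605 for Ciita and 0.829 for Cd74. In means, H2-Aa was at 96.9 ± 105 CPM (SD, n = 2) in the controls and 158 ± 100 CPM (SD, n = 2) in the deleted libraries. The SDs of both groups exceeded the difference of the means for each of these 5 genes.

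The peptide exchange genes followed the order less closely. H2-DMa, which encodes the alpha chain of H2-DM, was at 20.8 and 55.0 CPM in the controls and at 49.2 and 32.5 CPM after deletion. The beta chain gene H2-DMb1 was at 12.2 and 28.4 CPM in the controls and at 22.9 and 15 CPM after deletion. Both were highest in control replicate 2, and the deleted libraries lay between the controls. The second beta chain gene, H2-DMb2, was at 4.57 and 10.0 CPM in the controls and at 16.8 and 10.4 CPM after deletion. Its deleted libraries were above its controls by a narrow margin, which was lost after TMM scaling, where control replicate 2 had 9.87 and Chaf1b-deleted replicate 2 had 9.80 CPM. The log2 fold changes were 0.16 (SE 0.44) for H2-DMa, -0.05 (SE 0.43) for H2-DMb1 and 0.95 (SE 0.46) for H2-DMb2, with 95% intervals that held 0 for all 3. H2-DMb2 had the lowest adjusted p of the 10 members, 0.475 by edgeR's quasi-likelihood test.

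Of the inhibitor genes, H2-Oa separated the groups and H2-Ob did not. H2-Oa was at 6.60 and 9.05 CPM in the controls and at 11.0 and 11.6 CPM after deletion, so its groups did not overlap. H2-Ob was at 3.87 and 12.8 CPM in the controls and at 8.50 and 11.3 CPM after deletion, so its deleted libraries lay between its controls. The log2 fold change was 0.56 (SE 0.32, 95% interval -0.18 to 1.29) for H2-Oa and 0.26 (SE 0.52, 95% interval -0.94 to 1.47) for H2-Ob. Neither was called by edgeR's quasi-likelihood test (adjusted p = 0.542 for H2-Oa and 0.887 for H2-Ob). H2-Oa is the member whose controls differed least, with 1.37 times more in replicate 2 than in replicate 1.

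Of the 10 members, 9 had a positive and 1 a negative log2 fold change, with a median of 0.67 beside -0.03 over all genes tested. None was called at 1.5-fold and an adjusted p under 0.05, where 0.37% of all genes were called upregulated and 0.00606% downregulated. By edgeR's quasi-likelihood test 0 members had an unadjusted p under 0.05, where 9.15% of all genes had one and were higher and 3.1% had one and were lower. The exact test of edgeR called 0 members, where it called 3.25% of all genes upregulated and 0.224% downregulated. DESeq2 called 0 members, where it called 2.85% of all genes upregulated and 0.194% downregulated, and gave 1 member and 11.5% of all genes an unadjusted p under 0.05. Both deleted libraries exceeded both controls in 2 of 10 members and in 21.4% of all genes tested, so the members' share was close to the background.

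Which libraries entered the fit decided the result. Without control replicate 2, 5 members were called upregulated, where 1.92% of all genes were. These were the classical chains, Cd74 and Ciita, with log2 fold changes of 2.84 for H2-Aa, 2.12 for H2-Ab1, 3.01 for H2-Eb1, 2.24 for Cd74 and 2.25 for Ciita, and adjusted p-values from 2.23e-07 for H2-Eb1 to 0.00101 for Cd74 (edgeR's quasi-likelihood test). Without control replicate 1, no member was called, where 1.6% of all genes were called upregulated, and the median log2 fold change was 0.03, with H2-Aa at -0.04 and Cd74 at -0.24. Without Chaf1b-deleted replicate 1, the library that stood apart, no member and 0.721% of all genes were called upregulated, the median was -0.17 and all 3 classical chains were negative, with H2-Aa at -0.23, H2-Ab1 at -0.22 and H2-Eb1 at -0.12. Without Chaf1b-deleted replicate 2, no member and 1.89% of all genes were called upregulated, and the median was 1.23. Each of these fits holds 1 group with a single library, which is assumed to vary like the pair of the other group.

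**Figure D3:**
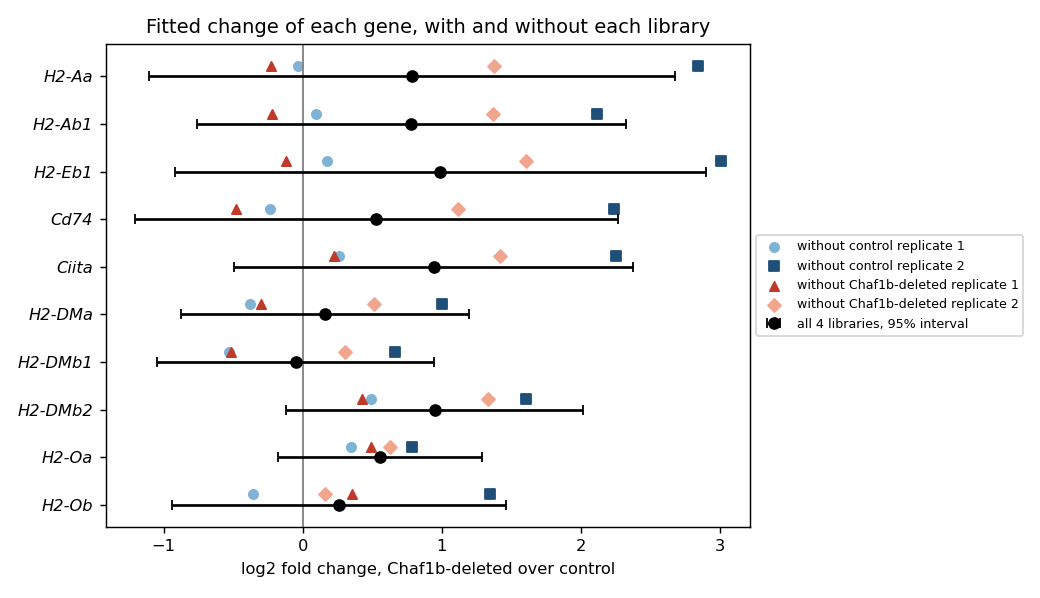
Log2 fold change of each member, Chaf1b-deleted over control, with all 4 libraries (black points, bars are 95% intervals) and after leaving out any single library (coloured points). The black intervals all cross 0, and the dark blue squares, without control replicate 2, lie to the right of the black points in all 10 genes.

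Within the control group the differences were far beyond counting error. H2-Aa was 7.44 times higher in control replicate 2 than in control replicate 1 (95% interval 6.79 to 8.16, exact binomial), H2-Eb1 7.21 times and Cd74 5.65 times. Ciita was 4.03 times higher (95% interval 3.30 to 4.96). Control replicate 2 was at least 2-fold above control replicate 1 in 9 of the 10 members, where 6.5% of all genes tested were. The ratio had a median of 3.67 over the members and 0.986 over all genes. Between the deleted libraries, replicate 1 was at least 2-fold above replicate 2 in 4 members, where 2.07% of all genes were. These 4 were the classical chains, at 2.61 to 2.87 times, and Cd74, at 2.62 times. The ratio went the other way in H2-Oa (0.942) and H2-Ob (0.754), and its median was 1.79 over the members and 0.865 over all genes. These intervals cover counting error only, since reads are not independent molecules.

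Levels of different genes were compared per length, as RPKM, the CPM divided by the exon length in kilobases. Cd74 was the highest member in every library, at 61.1 and 345 RPKM in the controls against 402 and 153 RPKM after deletion, and H2-Ab1 came next in every library. H2-Ab1, H2-Aa and H2-Eb1 were close to each other in 3 libraries, at 78.7 to 87.6 RPKM in control replicate 2, and control replicate 1 was the exception. Ciita was at 0.843 and 3.40 RPKM in the controls and at 5.17 and 2.62 RPKM after deletion, the lowest member in all libraries but Chaf1b-deleted replicate 1. Per length, Ciita was thus far below the classical chains in both groups.

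Ratios of counts within a library do not depend on its scaling. The ratio of H2-Ab1 to Ciita was 6.68 and 6.83 in the controls against 6.57 and 4.97 after deletion. Both deleted values lay below both controls, though the ratio was close in 3 libraries. The other targets did not keep such a proportion to Ciita. H2-Aa to Ciita was 4.39 and 8.10 in the controls against 7.14 and 5.35 after deletion, and H2-Eb1 to Ciita was 2.48 and 4.43 in the controls against 4.62 and 3.18 after deletion. Cd74 to Ciita was 16.5 and 23.1 in the controls against 17.7 and 13.3 after deletion, highest in control replicate 2. H2-Aa to H2-Ab1 was 0.657 in control replicate 1 and 1.08 to 1.19 in the other libraries. H2-Eb1 to H2-Ab1 was likewise 0.371 in control replicate 1 and 0.640 to 0.702 elsewhere. The alpha chain of I-A and the beta chain of I-E were thus low relative to H2-Ab1 in the library that was low in all of them. Cd74 to H2-Ab1 ran from 2.47 to 3.38 with overlapping groups.

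Among the exchange genes both ratios kept the groups apart, that of the beta chains by the wider margin. For any single ratio, exact permutation of 2 libraries against 2 gives such a separation with a probability of 0.333. H2-DMb2 to H2-DMb1 was 0.374 and 0.354 in the controls and 0.734 and 0.693 in the deleted libraries, with close replicates. It was picked out after its values were seen and was not tested. These beta chain genes lie side by side on chromosome 17, at 34280252 to 34288498 for H2-DMb2 and 34290017 to 34297168 for H2-DMb1 in NCBIM37. Of the 31-base stretches in their exons, 36.4% for H2-DMb1 and 41.8% for H2-DMb2 occur elsewhere in the genome, mostly in each other, so the split of reads between this pair is uncertain. H2-DMb1 to H2-DMa was 0.586 and 0.516 in the controls against 0.465 and 0.461 after deletion. Its exact 95% intervals of counting error overlapped between control replicate 2 (0.471 to 0.565) and Chaf1b-deleted replicate 1 (0.419 to 0.516). H2-Oa to H2-Ob, the chains of the inhibitor, was 1.70 and 0.708 in the controls against 1.29 and 1.03 after deletion.

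**Figure D4:**
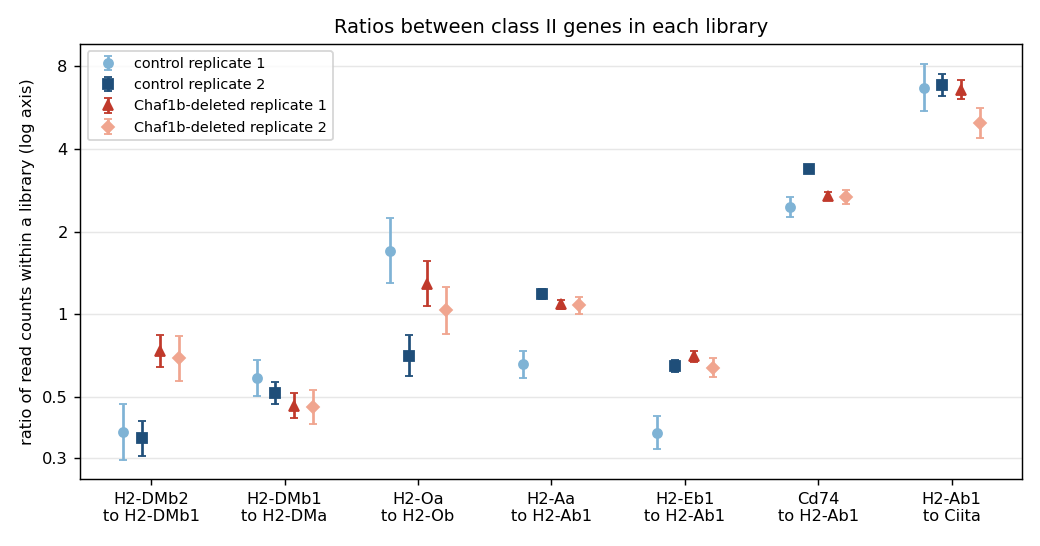
Ratio of read counts between pairs of class II genes within each library, on a log axis, with bars for the exact 95% interval of counting error. H2-DMb2 to H2-DMb1 lies at 0.354 to 0.374 in the controls and at 0.693 to 0.734 in the deleted libraries, while H2-Aa to H2-Ab1 and H2-Eb1 to H2-Ab1 are lowest in control replicate 1.

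In the genome 8 of the members lie within 223860 bases of chromosome 17, from 34229285 to 34453144 in NCBIM37. H2-Aa (34406276 to 34424772, minus strand) and H2-Ab1 (34400154 to 34406363, plus strand) overlap by 17 exonic bases on opposite strands. H2-Eb1 lies at 34442828 to 34453144, H2-DMa at 34272127 to 34276046, H2-Oa at 34229285 to 34232179 and H2-Ob at 34375848 to 34390850, all on the plus strand. Brd2, a bromodomain gene between H2-Oa and H2-DMa, was at 318 and 315 CPM in the controls and at 424 and 389 CPM in the deleted libraries. Psmb8, an immunoproteasome gene of the class I pathway between H2-DMb1 and H2-Ob, was at 92.3 and 90.4 CPM in the controls and at 149 and 80.2 CPM in the deleted libraries. Its neighbour Tap1, a peptide transporter subunit, was at 68.1 and 90.9 CPM in the controls and at 203 and 85.2 CPM in the deleted libraries. Tap1 had the order of the classical chains with a smaller gap between the controls, whereas Brd2 and Psmb8 did not have it.

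The likeness of profiles was measured as the distance between log2 CPM over the 4 libraries, each centred on its mean, from the mean profile of the classical chains and Cd74. Ciita lay at 0.52 from it, although it took no part in that mean, and the chains and Cd74 themselves at 0.27 to 0.41. H2-DMb2 lay at 1.15, H2-DMa at 1.29, H2-DMb1 at 1.53, H2-Ob at 1.54 and H2-Oa at 1.90. The 5 nearest genes outside the members were Gpnmb, Susd4, Klrk1, Flrt3 and Adm, at 0.32 to 0.54. Gpnmb, a glycoprotein gene of macrophages and pigment cells, had 161 counts in control replicate 1, where the other 4 had 2 to 21. It was at 7.08 and 49.5 CPM in the controls and at 52.9 and 19.1 CPM after deletion. The 5 nearest to Ciita outside the members were Adm, Gvin1, Tbc1d9, Cmtm1 and Cd7, at 0.33 to 0.37. In control replicate 1 Tbc1d9 had 46 counts and the other 4 had 3 to 8. With 4 libraries such distances are descriptions only.

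The listed regulator genes, which include those of the factors that place Ciita on DNA, showed little of this pattern. Of 18 regulator genes tested, 0 were called either way, where 0.37% of all genes were called upregulated and 0.00606% downregulated. None of 19 listed shared the order of the classical chains. Rfx5, the DNA-binding part of the RFX complex, was at 23.7 and 24.4 CPM in the controls and at 14.5 and 23.3 CPM after deletion. Its partner Rfxank was between 14.2 and 15.6 CPM in every library. Nfya, a subunit of NF-Y, had a log2 fold change of -0.52 (SE 0.21). Irf4 was at 10.6 and 41.0 CPM in the controls and at 33.2 and 19.2 CPM after deletion, highest in a control. Irf1 was at 37.6 and 45.9 CPM in the controls and at 73.0 and 55.6 CPM after deletion. Irf8 was at 12.3 and 18.3 CPM in the controls and at 26.5 and 20.2 CPM after deletion. Both deleted libraries were above both controls in 4 of the 18, where 21.4% of all genes tested were. They were below both controls in 6 of the 18. The share of all genes below was not computed, so nothing is read from that count. Ifng itself had no count in any library, which allows up to 0.118 to 0.162 CPM.

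Several endosomal processing and turnover genes had the order of the classical chains. It was shared by 6 of 10 listed and by 2.1% of all genes tested. The order was read from 5 of the 10 members, so their count is not a result beside that share. It says nothing of the size of the differences, which were small in Sppl2a. That gene was at 121 and 141 CPM in the controls and at 161 and 134 CPM in the deleted libraries. Ctss, a protease that cuts Cd74 in antigen-presenting cells, was at 41.6 and 149 CPM in the controls and at 186 and 61.0 CPM after deletion. Lgmn, another endosomal protease gene, was at 7.43 and 23.7 CPM in the controls and at 26.3 and 11.4 CPM after deletion. March1, whose product marks class II molecules for removal, was at 15.2 and 34.6 CPM in the controls and at 44.3 and 32.5 CPM after deletion. Ctsd had the largest change of the group, from 613 and 567 CPM in the controls to 1146 and 779 CPM after deletion, a log2 fold change of 0.75 (adjusted p = 0.373, edgeR's quasi-likelihood test). The examples beside Ctsd were chosen after their values were seen.

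H2-Eb2, a class II beta chain gene that is not a member, had a larger fitted change than any member, at low counts. It had 12 and 19 counts in the controls and 96 and 53 in the deleted libraries, or 0.53 and 0.75 CPM against 4.08 and 2.87 CPM, so it was also higher in the deleted library that did not stand apart. The log2 fold change was 2.48 (SE 0.53), which edgeR's quasi-likelihood test did not call (adjusted p = 0.119), while edgeR's exact test (adjusted p = 0.00387) and DESeq2 (adjusted p = 0.00847) did. Its promoter held the spaced pair of boxes found in 5 members, and 5.25% of the 31-base stretches in its exons have a copy elsewhere. Over the whole pathway list of 31 genes, 29 were tested, 0 were called in either direction, 19 were higher and 10 lower, and the median log2 fold change was 0.18. At an unadjusted p under 0.05, 5 of the 29 were higher and 1 lower, beside the shares of 9.15% and 3.1% over all genes.

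Of the macrophage markers, C1qa, C1qb and Mertk were high in the libraries where the classical chains were high. C1qa, a complement gene of tissue macrophages, was at 0.66 and 23.2 CPM in the controls and at 10.6 and 0.43 CPM after deletion. C1qb was at 1.36 and 37.7 CPM in the controls and at 16.5 and 1.79 CPM after deletion. Mertk, a receptor for the uptake of dead cells, was at 0.44 and 4.96 CPM in the controls and at 1.95 and 0.38 CPM after deletion. All 3 were as low in Chaf1b-deleted replicate 2 as in control replicate 1 or nearly so, whereas H2-Aa had 86.9 CPM in the former and 23.0 CPM in the latter. Of the other 3 markers of this list, Csf1r had the order of C1qb, but its deleted libraries were close to each other. It was at 59.5 and 158 CPM in the controls and at 98.6 and 89.8 CPM after deletion. Adgre1 was at 41.5 and 76.9 CPM in the controls and at 102 and 92.2 CPM after deletion, so its groups did not overlap. Ly6c2 was at 633 and 778 CPM in the controls and at 1496 and 620 CPM after deletion. Of the 6 macrophage or monocyte markers, 4 were at least 2-fold higher in control replicate 2 than in control replicate 1, 4 were so in Chaf1b-deleted replicate 1 over replicate 2, and none was at 0. Their summed level was 737 and 1079 CPM in the controls against 1725 and 804 CPM after deletion, most of it Ly6c2. The part of these cells in the class II result was not tested. In bulk RNA, more cells of a type and more RNA per cell cannot be told apart.

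Dendritic and B cell markers had another pattern. The 8 conventional dendritic cell markers summed to 19.7 and 25.7 CPM in the controls and to 86.1 and 73.3 CPM after deletion, with none at 0. Both deleted libraries were above both controls in 5 of the 8, where 21.4% of all genes tested were. The groups overlapped in the other 3. Zbtb46 was at 5.50 and 6.41 CPM in the controls and at 4.76 and 9.48 CPM after deletion. Clec9a was at 0.352 and 0.590 CPM in the controls and at 0.510 and 1.08 CPM after deletion. Cd209a had 4 and 6 counts in the controls and 10 and 1 after deletion. Flt3, a receptor of progenitors and dendritic cells, was called upregulated with a log2 fold change of 2.09 (adjusted p = 0.0383, edgeR's quasi-likelihood test). Ccr7, a chemokine receptor of mature dendritic cells, was at 1.67 and 4.13 CPM in the controls and at 35.0 and 20.3 CPM after deletion (log2 fold change 3.30, adjusted p = 0.0555, edgeR's quasi-likelihood test). The 6 B cell markers summed to 17.5 and 21.4 CPM in the controls and to 33.2 and 28.1 CPM after deletion. Both deleted libraries were above both controls in 6 of these 6, where 21.4% of all genes tested were. By edgeR's quasi-likelihood test 0 of them were called, where 0.37% of all genes were called upregulated. Unlike H2-Aa, neither sum was low in control replicate 1 alone. Plasmacytoid dendritic cell markers summed to 44.8 to 57.3 CPM and T cell markers to 5.27 to 12.7 CPM, with Cd3e at 0 in Chaf1b-deleted replicate 1. Among all markers Ly6a had the second largest change, at 3.78 and 10.4 CPM in the controls against 63.9 and 11.0 CPM after deletion.

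The type I interferon-stimulated genes were high in a single library. These 8 genes summed to 57.8 and 70.0 CPM in the controls and to 1004 and 80.4 CPM after deletion, and 8 of 8 were at least 2-fold higher in Chaf1b-deleted replicate 1 than in replicate 2. Between the controls 1 of these 8 differed by 2-fold, while 9 of 10 class II members did. Ifit3 and Ifit1 had the largest log2 fold changes of the list beside Cxcl9, at 4.73 and 3.94, and were not called. The 8 interferon-gamma-responsive genes summed to 90.5 and 110 CPM in the controls and to 310 and 136 CPM after deletion. Cxcl9, a chemokine gene that interferon-gamma induces, was at 0.088 and 0.197 CPM in the controls and at 3.19 and 3.30 CPM after deletion, and was the 1 gene of 15 tested that was called (log2 fold change 4.47, adjusted p = 0.0413, edgeR's quasi-likelihood test). The part of interferon signals in the class II values was not tested.

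**Figure D5:**
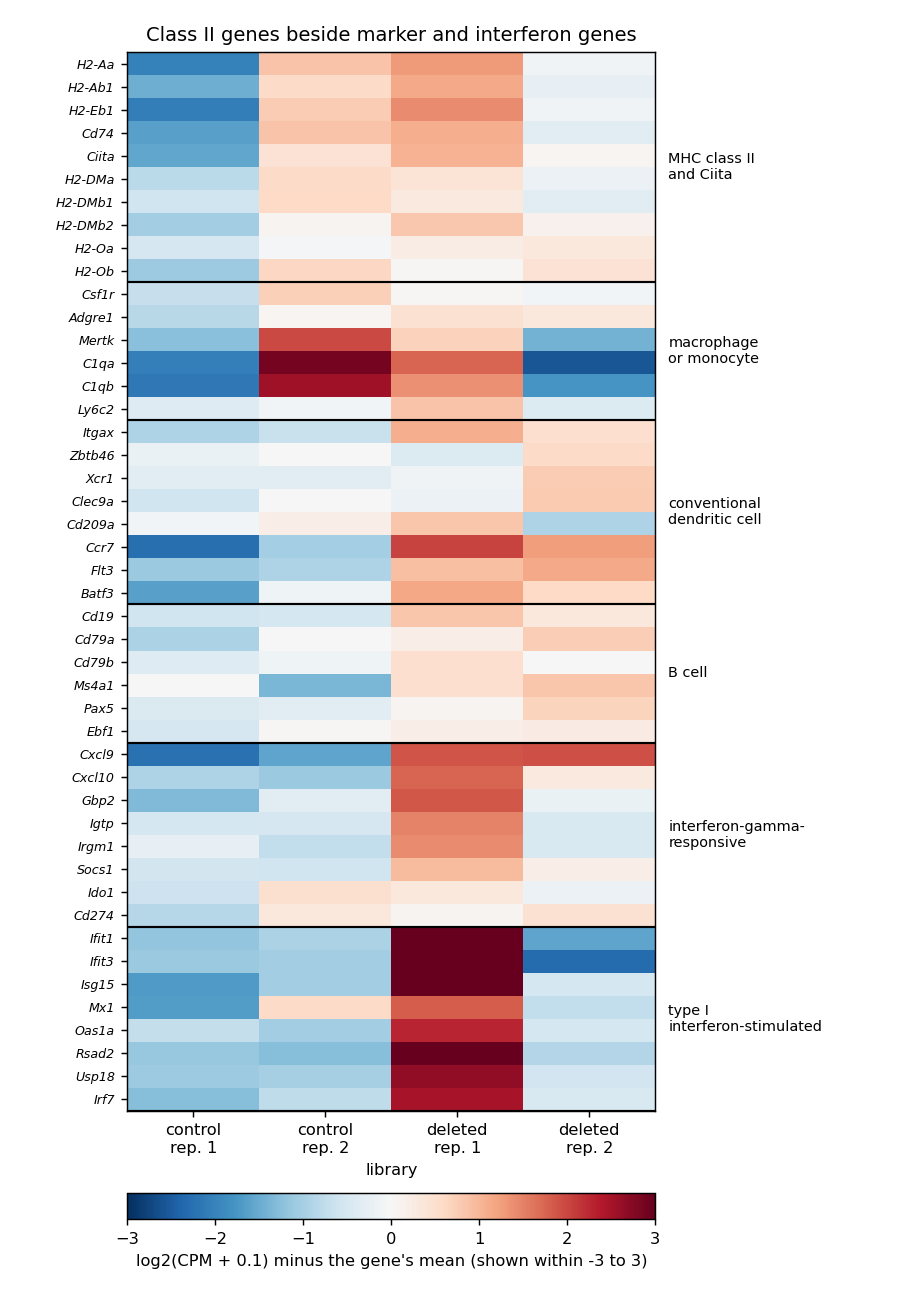
Colour map of log2(CPM + 0.1) minus the mean of each gene, shown within -3 to 3, for the class II members and for marker and interferon genes in the 4 libraries. C1qa, C1qb and Mertk share the high levels of the class II genes in control replicate 2 and Chaf1b-deleted replicate 1, whereas the type I interferon-stimulated genes are high in Chaf1b-deleted replicate 1.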

How the data were processed

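RNA-seq of 4 HSPC libraries, grouped and numbered by their labels, was used. The authors aligned reads to mm9 with STAR and counted them per gene with HTSeq, and the deposited values are raw counts, 1 table per library. The annotation release and strand setting are not given in the sources used here. The 5 summary lines of each table were left out of library sizes (ambiguous 2.05% to 2.76% of reads, no feature 35.8% to 48.3%). Symbols and coordinates came from GENCODE vM1 on NCBIM37, the Ensembl name of mm9, which named 33068 of 43629 identifiers, with 4 list symbols matched through RefSeq synonyms. Promoter windows are from RefSeq.

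Counts were fitted with edgeR 4.0.16 (R 4.3.3, limma 3.58.1), using filterByExpr with a minimum count of 10, TMM factors of 0.925 to 1.06, glmQLFit and glmQLFTest without covariates. Calls needed 1.5-fold and a Benjamini-Hochberg adjusted p under 0.05. The biological coefficient of variation was 0.276. Replicates differed beyond sampling noise, with a chi-square per degree of freedom of 39.1 for the controls and 59.7 for the deleted libraries. Ratios have exact binomial 95% intervals. On 5 simulated datasets with 200 changed genes, the test found 63.4% of 4-fold and 93.8% of 16-fold changes, with 8.92% false among its calls. The changed genes were drawn from all genes tested. These rates are thus not those of the members, several of which differed widely between replicates.

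The members and lists were chosen with earlier results of these data known. Genes named were all 10 members, Chaf1b, called genes and the 3 largest changes of each list, and the 5 nearest profiles, except for an item that is not reported here. Others from the lists and the class II region were named after their values were seen. Alternatives were DESeq2 1.42.0, its size factors, library size alone, edgeR's exact test, no low-count filter, no fold threshold, a replicate block and each library left out.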

Additional observations from a re-analysis of the deposited data

How the results depend on the processing

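The count of members called upregulated was 0 with all 4 libraries and 0 under DESeq2, DESeq2 size factors, library size alone, edgeR's exact test, no fold threshold and the replicate block. Without the low-count filter it was 1, H2-Eb1 (log2 fold change 1.02, adjusted p = 0.00948 by edgeR's quasi-likelihood test), where 808 of 31399 genes were called upregulated. In that setting 6 members had an unadjusted p under 0.05 by the same test. Of the 31399 genes, 2095 had one and were higher and 783 had one and were lower. Leaving out each library gave 0 to 5 members, the 5 being without control replicate 2. No setting called a member or a pathway gene downregulated. Of all genes, DESeq2 called 2.85% and the exact test 3.25% upregulated. Pathway genes called upregulated were 0 in the main fit, 2 without the low-count filter (H2-Eb2 among them), 1 by DESeq2 and 1 by the exact test (H2-Eb2 in both), and 0 to 2 with a library left out. Leaving out a library, log2 fold changes ranged from -0.23 to 2.84 for H2-Aa, -0.22 to 2.12 for H2-Ab1, -0.12 to 3.01 for H2-Eb1, -0.48 to 2.24 for Cd74, -0.38 to 1.00 for H2-DMa, -0.53 to 0.66 for H2-DMb1 and -0.35 to 1.35 for H2-Ob. They stayed positive for Ciita, H2-DMb2 and H2-Oa. The cause was not tested. With the replicate block H2-DMb1 was at 0.014 and no call of a member changed. Same-numbered deviations correlated at 0.0114, so the numbers were not taken to pair the libraries. Over all genes, calls ran from 14 up and 0 down with the block to 808 up and 79 down without the filter, against 61 up and 1 down. With 2 libraries in each group, the 95% interval of H2-Aa spans -1.11 to 2.68, so changes of that size were not resolved.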
